A study of Mus musculus with 9 samples.

Results

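The SNARE, synaptotagmin and Munc genes of regulated exocytosis were followed in cultured mouse mast cells before and after antigen. Members were all rows of the deposited table whose symbol starts with Stx, Vamp, Snap, Stxbp, Syt, Sytl or Cplx and a digit, or is one of Unc13a to Unc13d. The rule found 65 genes among the 23951 of the table, and it used no measured value. Values are FPKM, fragment counts divided by transcript length and by library size, so levels of different genes can be set side by side.

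The cells were bone marrow-derived mast cells of wild-type C57BL/6 mice, kept in culture over 4 to 6 weeks on interleukin-3 and on stem cell factor, each at 10 ng/ml, and per the labels more than 95% carried the IgE receptor and CD117. The untreated group received neither IgE nor antigen. The IgE group received 0.5 µg/ml of an IgE specific for DNP, a small hapten, during 18 h, and the antigen group received this IgE and then 50 ng/ml albumin coupled to DNP (DNP-BSA), which cross-links the receptor-bound IgE, for 2 h. Each group had 3 libraries. All groups shared the cytokines, and no label says whether the replicates came from separate mice or cultures, so p-values reflect the spread among the 9 libraries, which may be technical.

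SNARE proteins drive membrane fusion. A granule carries an R-SNARE of the VAMP family, the target membrane carries a syntaxin and a protein of the SNAP-25 family, and their helices zip into a bundle that pulls the membranes together. Sec1/Munc18 proteins such as the Stxbp2 and Stxbp3 products hold and guide syntaxins, Unc13 (Munc13) proteins prime granules for fusion, synaptotagmins are vesicle proteins many of which sense calcium, synaptotagmin-like proteins tether granules through Rab27, and complexins clamp or promote the assembled bundle. In mast cells this machinery releases histamine and proteases within minutes of receptor cross-linking, so RNA taken after antigen was measured in cells that had met the stimulus for degranulation.

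Of the 65 genes, 33 reached 1 FPKM in at least 3 of the 9 libraries and were tested, and 32 did not. The 33 are therefore the members that passed this filter and not the whole family. Depth read from the steps of the low values was 20.9 to 39.9 M reads per library, at which 1 read on a 2 kb transcript is worth up to 0.0239 FPKM and the counting coefficient of variation is up to 4.89% at 10 FPKM. Depth went with group: it was 20.9 to 28.6 M in antigen, 30.2 to 33.6 M in untreated and 32.4 to 39.9 M in IgE libraries. Low values are therefore coarsest in the antigen group, and the part of depth in the results was not tested. The library most distant from its own group was IgE replicate 3, with an SD of log2 differences of 0.175 against 0.0990 to 0.123. All 437 X-linked genes with values above 0 in every other library had 0 in antigen replicate 3, and such zeros were treated as missing. Of 8 mast cell markers, 6 were expressed, with Fcer1a at 4660 to 6090 FPKM and Kit at 395 to 497 FPKM, but Cpa3 and Cma1 were listed at 0 in all 9 libraries. Because an exact 0 can be a failed estimate, a gene is called only listed at 0 below. T and B cell markers summed to at most 0.272 FPKM and neutrophil markers to at most 2.35 FPKM. Basophil markers summed to 388 to 417, 334 to 382 and 498 to 519 FPKM in untreated, IgE and antigen libraries. Most of that sum was Cd200r3, at 375 to 405, 318 to 363 and 480 to 498 FPKM. Mcpt8 was at 11.7 to 13.5 FPKM in untreated and 18.1 to 21.9 FPKM in antigen libraries. Itga2 went the other way (0.746 to 0.987 and 0.213 to 0.287 FPKM). Megakaryocyte markers summed to 434 to 440.0, 361 to 375 and 392 to 404 FPKM, with Ppbp listed at 0 and Pf4 at or under 0.121 FPKM. In antigen replicate 3 the X-linked markers of the neuronal and neuroendocrine list are missing and left out of its sum. The 7 markers of that list summed to 3.45 to 4.09 FPKM without antigen and to 9.32 to 10.9 FPKM with it. That rise lay in Eno2 (0.625 to 0.884 FPKM in untreated and 7.86 to 8.88 FPKM in antigen libraries), while Chga was listed at 0 and Rbfox3 stayed at or under 0.0110 FPKM. Syp went the other way (1.53 to 1.75 and 0.826 to 0.967 FPKM, its antigen replicate 3 missing), as did Tubb3 (1.29 to 1.43 and 0.561 to 0.880 FPKM). Macrophage markers summed to 21.2 to 22.7, 25.7 to 26.4 and 37.9 to 38.9 FPKM in untreated, IgE and antigen libraries, with Cd68 at 8.30 to 8.92 FPKM in untreated and 29.6 to 30.5 FPKM in antigen libraries. Other markers of that list went the other way, with Emr1 at 11.7 to 12.6 and 7.70 to 7.82 FPKM and Csf1r at 0.895 to 1.13 and 0.586 to 0.660 FPKM. Their part in the results below was not tested, and in bulk RNA fewer cells of a type and less RNA per cell cannot be told apart.

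In untreated cells the granule and plasma membrane SNAREs Vamp8 and Snap23 stood well above the other members. Vamp8, the R-SNARE of secretory granules, led with 230.2 ± 12.2 FPKM in untreated libraries (SD, n = 3, as for all such values), followed by Snap23, the widely expressed SNAP-25 relative of the plasma membrane, with 140.2 ± 2.54 FPKM. Stxbp2, which encodes the Sec1/Munc18 protein Munc18-2, was at place 3 with 67.1 ± 1.86 FPKM, and its libraries did not overlap those of either neighbour in this order. Unc13d, which encodes the priming factor Munc13-4 (57.2 ± 0.766 FPKM), and Stxbp5, which encodes the syntaxin-binding inhibitor tomosyn (56.5 ± 1.31 FPKM), overlapped each other. The plasma membrane syntaxins Stx3 (48.3 ± 1.09 FPKM) and Stx4a (46.7 ± 0.148 FPKM) came next. With antigen, Vamp8 and Snap23 were still the highest, but Sytl3, Sytl2 and Stx11 held places 3 to 5, and Unc13d had gone from place 4 to place 13. In that order Stx11 overlapped Stxbp5 at place 6, and Unc13d overlapped Stx7 at place 14.

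**Figure D1:**
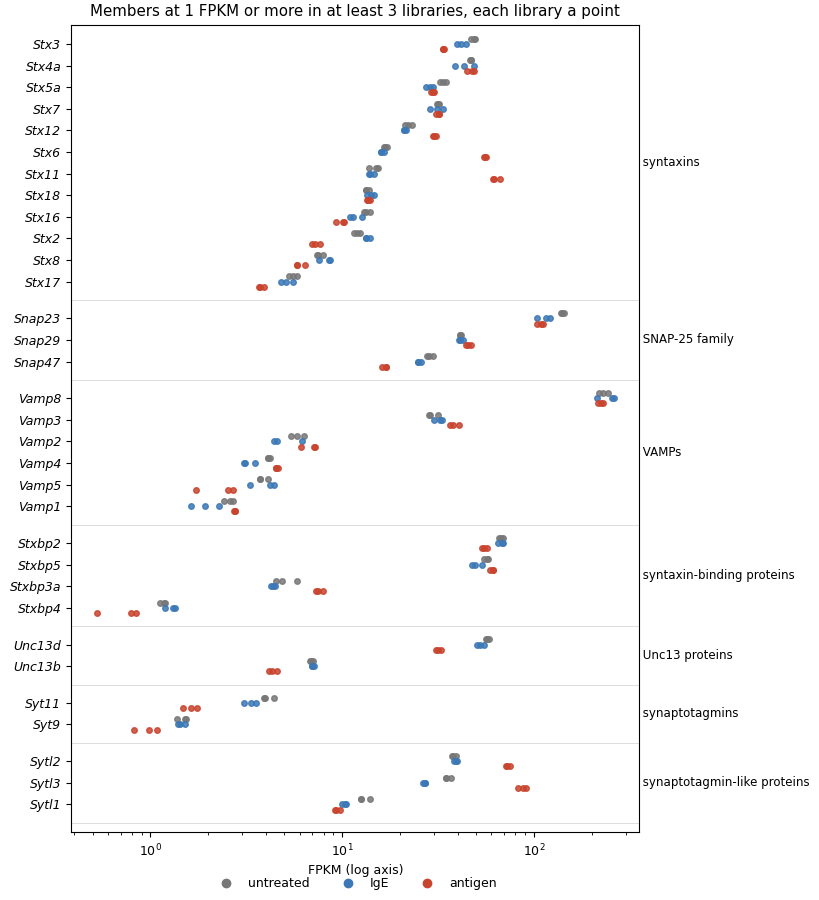
FPKM on a log axis of 32 of the 33 tested members, grouped by role and ordered by their untreated mean, with 1 point per library and colours for the 3 groups. The antigen points of Stx11, Stx6, Sytl3 and Sytl2 lie far to the right of the others, those of Unc13d, Stx2, Snap47 and Syt11 to the left.

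The remaining 32 members stayed under the filter. Snap25, Syt1, Syt4, Syt6, Syt10, Syt16, Snap91 and Vamp7 were listed at 0 in every library, the last an X-linked R-SNARE of lysosome-related granules whose antigen replicate 3 value counts as missing. Among these members the highest single value was 0.828 FPKM, in Stxbp3b, which the reference names Stxbp3-ps, a pseudogene of Stxbp3. Cplx2, the complexin with the highest mean, was at 0.0368, 0.00656 and 0.0407 FPKM in untreated, 0.0393, 0.0344 and 0.0243 in IgE and 0.0631, 0.0659 and 0.0206 in antigen libraries. Those values are worth only a few reads, and the 3 groups overlapped. Syt2, a fast calcium sensor of synapses, was at 0.0181, 0.0290 and 0.00858 FPKM in untreated, 0.0166, 0 and 0 in IgE and 0, 0.0139 and 0 in antigen libraries.

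Antigen against IgE compares cells given IgE and then DNP-BSA with cells given IgE alone. Receptor cross-linking cannot be told apart here from other effects of that addition. Of the 33 tested members, 13 rose, 13 fell and 7 did not pass the test (limma on log2(FPKM + 1), adjusted p under 0.05 over all 10890 tested genes). The share of members called, 78.8%, was close to the background, since 73.8% of all tested genes were called, 37.6% as higher and 36.2% as lower. The median log2 change of the members was -0.0356 and their median absolute change 0.365, beside 0.00713 and 0.321 over all tested genes. At a log2 change of at least 0.5, 5 members rose (Stx11, Stx6, Sytl3, Sytl2 and Stxbp3a) and 6 fell (Stx2, Syt11, Unc13d, Vamp5, Unc13b and Snap47), beside 17.2% and 15.1% of all tested genes. At both thresholds the members' shares lay near those of all genes, so the counts are no result about the family. Antigen and IgE libraries did not overlap in 26 of the 33 members, beside 8204 of all 10890 tested genes. Lack of overlap in a single member is therefore common in this comparison. The shares of 37.6% and 36.2% are also the background of the counts by role and location below.

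**Figure D2:**
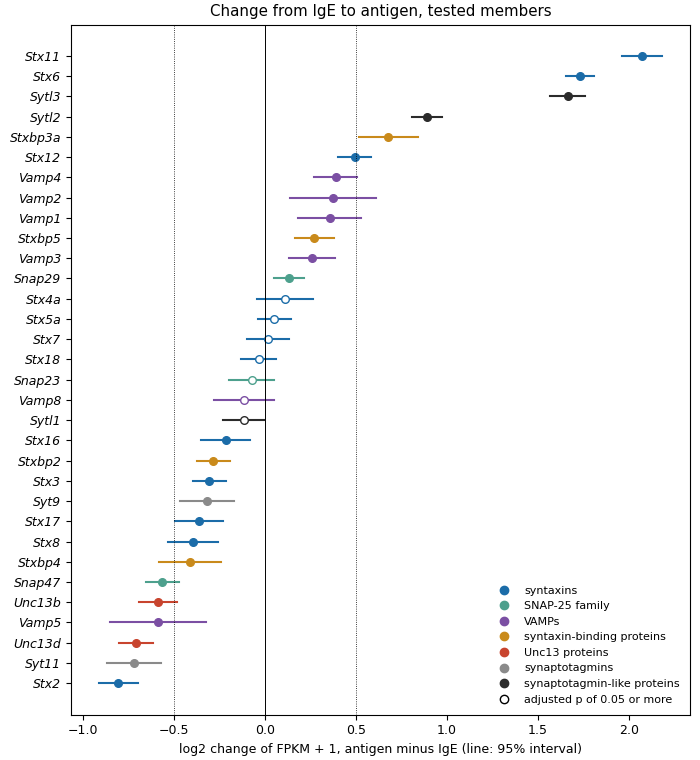
Log2 change of FPKM + 1 from IgE to antigen for 32 of the 33 tested members, with limma's 95% interval as a line, colours for roles, open circles for members that did not pass the test and dotted lines at a change of 0.5 in either direction. Stx11, Stx6 and Sytl3 stand past 1.5, and the lowest value is that of Stx2, at -0.81.

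Syntaxins moved in both directions. Stx11, a syntaxin without a membrane-spanning anchor that cytotoxic lymphocytes need for granule release in humans, rose most. Stx11 was at 13.9, 15.0 and 15.3 FPKM in the untreated libraries, 13.9, 14.7 and 14.0 in the IgE libraries and 60.9, 62.0 and 66.2 in the antigen libraries. Untreated and IgE libraries overlapped, and every antigen library was above all 6 others. From IgE to antigen the mean rose 4.43-fold (log2 change 2.07, SE 0.0492, limma adjusted p = 1.04e-10). Stx6, a Q-SNARE of the trans-Golgi network and endosomes, rose 3.46-fold (log2 change 1.73, SE 0.0345, limma adjusted p = 3.15e-11). Its RNA was at 17.0, 16.8 and 16.5 FPKM in the untreated libraries, 16.0, 16.5 and 15.9 in the IgE libraries and 55.8, 55.2 and 56.4 in the antigen libraries. The antigen values spread over little more than 1 FPKM and stood clear of the others. Stx12, an endosomal syntaxin, rose 1.43-fold to 30.2 ± 0.526 FPKM (log2 change 0.49, limma adjusted p = 1.19e-06).

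The promoters of Stx11, Stx6 and Sytl3 are shown because these are the 3 members that rose by at least 1 on the log2 scale. Each is the RefSeq window of GRCm38.p6 from 250 bases before to 50 after the annotated start, written along the gene's strand, and the start used by these cells was not measured. Capitals mark matches, on either strand, to 3 motifs: GGAAA (the core bound by NFAT factors), TGACTCA with its complement TGAGTCA (AP-1), and GGGNNNNNCC (a loose NF-kB pattern). Stx11 lies at chr10:12964210-12964509 on the minus strand, Stx6 at chr1:155158453-155158752 on the plus strand and Sytl3 at chr17:6658809-6659108 on the plus strand.
Stx11: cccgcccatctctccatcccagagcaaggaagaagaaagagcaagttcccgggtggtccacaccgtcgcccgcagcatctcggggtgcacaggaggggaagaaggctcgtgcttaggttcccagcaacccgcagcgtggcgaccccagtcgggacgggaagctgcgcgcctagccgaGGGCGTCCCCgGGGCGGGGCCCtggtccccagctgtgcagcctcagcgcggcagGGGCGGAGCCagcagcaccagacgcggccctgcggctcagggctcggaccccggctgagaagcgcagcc
Stx6: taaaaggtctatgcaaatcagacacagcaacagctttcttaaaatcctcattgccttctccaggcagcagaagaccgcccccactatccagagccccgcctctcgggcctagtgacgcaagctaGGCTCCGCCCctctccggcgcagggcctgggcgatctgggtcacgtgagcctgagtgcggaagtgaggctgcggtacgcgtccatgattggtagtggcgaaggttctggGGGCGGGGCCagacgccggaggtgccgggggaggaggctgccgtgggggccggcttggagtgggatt
Sytl3: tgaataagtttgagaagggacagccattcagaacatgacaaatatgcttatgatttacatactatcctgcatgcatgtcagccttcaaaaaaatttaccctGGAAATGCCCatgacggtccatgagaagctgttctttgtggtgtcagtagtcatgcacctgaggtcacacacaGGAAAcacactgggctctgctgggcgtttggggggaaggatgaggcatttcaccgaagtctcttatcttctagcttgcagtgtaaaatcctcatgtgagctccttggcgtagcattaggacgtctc

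The 3 windows have little in common. GC content was 71.0% for Stx11, 63.3% for Stx6 and 46.0% for Sytl3. GGAAA was present only in the Sytl3 window, at 2 places, 149 and 76 bases before the start, and the first of these is part of its only match to the NF-kB pattern, GGAAATGCCC. The Stx11 window held 4 matches to that pattern, 2 of which overlap in GGGCGGGGCCC, and the Stx6 window held 2. No window held the AP-1 letters. Over all 32851 windows of the table, 61.3% held GGAAA, 50.8% the NF-kB pattern and 5.20% the AP-1 letters, so the first and second motif are common in any window of this length. Windows were found for 27 of the 33 tested members, and a member counted if any of its windows held the motif. GGAAA was found for 2 of 8 members that rose, 10 of 12 that fell and 5 of 7 that did not pass the test. The NF-kB pattern was found for 7 of 8, 8 of 12 and 4 of 7. These counts are per member and the shares above are per window, so they are not like measures. These are letter matches only and say nothing of which factor binds.

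The syntaxins of the plasma membrane did not move together. Stx2 was at 12.0, 12.3 and 11.6 FPKM in the untreated libraries, 13.9, 13.2 and 13.3 in the IgE libraries and 6.95, 7.22 and 7.64 in the antigen libraries. It fell 1.85-fold from IgE to antigen (log2 change -0.81, SE 0.0472, limma adjusted p = 9.02e-08), with all antigen libraries below all others. Stx3 was at 49.1, 47.1 and 48.7 FPKM in the untreated libraries, 44.0, 41.7 and 39.8 in the IgE libraries and 33.4, 33.9 and 33.6 in the antigen libraries. Its fall from IgE to antigen was 1.25-fold (log2 change -0.31, limma adjusted p = 6.19e-05), after a smaller fall from untreated to IgE (log2 change -0.20, limma adjusted p = 0.00489), so that the 3 groups form a descending series without overlap. Stx4a, the plasma membrane syntaxin that pairs with Snap23 in many secretory cells, was at 46.6, 46.9 and 46.7 FPKM in the untreated libraries, 43.4, 38.7 and 48.7 in the IgE libraries and 44.6, 47.7 and 48.6 in the antigen libraries. Its IgE libraries spanned a wider range than the other groups, with IgE replicate 3 highest, and the change to antigen did not pass the test (log2 change 0.11, 95% interval -0.0457 to 0.265, limma adjusted p = 0.178). Without IgE replicate 3 the log2 change was 0.19 (limma adjusted p = 0.00804), and over the alternatives the log2 change of Stx4a ran from -0.07 to 0.19.

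Syntaxins of inner membranes were as varied. The background is 37.6% of all tested genes called higher and 36.2% called lower. By location, which was assigned and not measured, 1 of the 4 tested plasma membrane syntaxins rose and 2 fell. The one that rose was Stx11, which has no membrane-spanning anchor, so its place in this group is open and the tally depends on it. Of the 5 of endosomes and the trans-Golgi network 2 rose and 2 fell, and 1 of the 3 of the endoplasmic reticulum and early Golgi fell. Stx8 and Stx16, of endosomes and the trans-Golgi network, fell to 6.02 ± 0.358 and 9.86 ± 0.543 FPKM (limma adjusted p = 0.000165 and 0.00719), and Stx17, which also acts in autophagosome fusion, fell to 3.77 ± 0.109 FPKM (limma adjusted p = 0.000227). Stx5a, Stx7 and Stx18 did not pass the test, with 95% intervals of the log2 change of -0.0415 to 0.143, -0.101 to 0.130 and -0.131 to 0.0598. The summed FPKM of the 15 syntaxins was 266 ± 0.472 in untreated, 249.8 ± 2.67 in IgE and 332 ± 5.61 in antigen libraries. Stx11 made up 5.69% ± 0.233 of that sum with IgE and 19.0% ± 0.546 with antigen, Stx6 6.45% ± 0.166 and 16.8% ± 0.244, and Stx3 16.7% ± 0.680 and 10.1% ± 0.158.

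**Figure D3:**
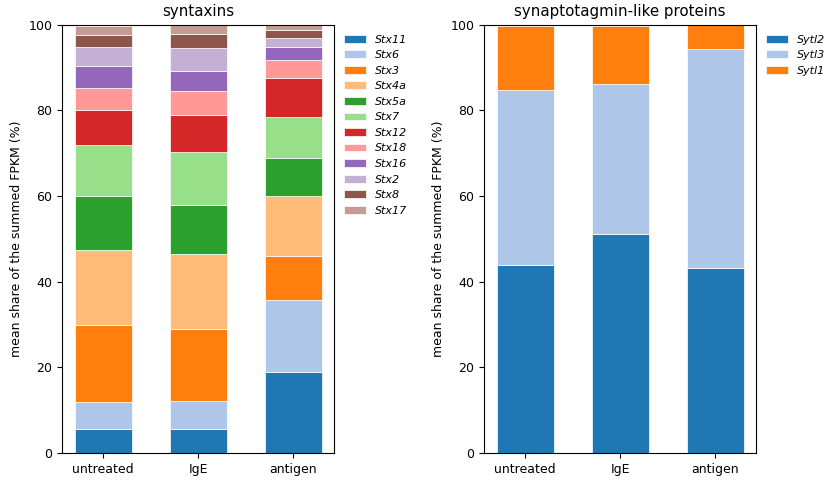
Mean share of the summed FPKM of the 15 syntaxins (left) and the 5 synaptotagmin-like genes (right) held by each tested member in the 3 groups. Stx11 and Stx6 widen from 5.69% and 6.45% with IgE to 19.0% and 16.8% with antigen, and Sytl3 from 35.1% to 51.3%.

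The SNAP-25 family supplies the other Q-SNARE helices of the fusion bundle. Snap23 was at 139, 138 and 143 FPKM in the untreated libraries, 121, 115 and 104 in the IgE libraries and 109, 103 and 111 in the antigen libraries. The untreated libraries were above all others and the IgE and antigen libraries overlapped. Snap23 thus fell between untreated and IgE (log2 change -0.30, SE 0.0551, limma adjusted p = 0.00278), whereas its change from IgE to antigen did not pass the test (log2 change -0.07, 95% interval -0.197 to 0.0485, limma adjusted p = 0.245). That change passed it without IgE replicate 3 (log2 change -0.13, limma adjusted p = 0.0149) and after quantile normalization (-0.38, limma adjusted p = 2.73e-05). Snap47, a family member that lacks the palmitoylated cysteines of Snap25, was at 27.8, 28.5 and 29.6 FPKM in the untreated libraries, 25.9, 25.0 and 24.7 in the IgE libraries and 16.9, 16.2 and 17.0 in the antigen libraries. It fell 1.51-fold from IgE to antigen (log2 change -0.57, SE 0.0401, limma adjusted p = 4.11e-07), with no overlap between any of the 3 groups. Snap29, a cytosolic member that works with many syntaxins, rose by 0.13 on the log2 scale to 45.5 ± 1.30 FPKM (limma adjusted p = 0.00727).

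Among the R-SNAREs, Vamp8 remained by far the highest. Vamp8 was at 228, 219 and 243 FPKM in the untreated libraries, 259.8, 255 and 212 in the IgE libraries and 229.8, 216 and 222 in the antigen libraries. The IgE and antigen groups overlapped, and the change did not pass the test (log2 change -0.12, 95% interval -0.282 to 0.0486, limma adjusted p = 0.178). IgE replicate 3 was its lowest library, and without it the log2 change was -0.21 (limma adjusted p = 0.00339), while quantile normalization gave -0.40 (limma adjusted p = 0.00041). Vamp8 held 83.4% ± 0.230 of the summed FPKM of the 7 VAMP genes in untreated and 80.2% ± 1.06 in antigen libraries. Vamp7, listed at 0, adds nothing to that sum, so the shares are too high if this 0 is a failed estimate. Vamp3, cellubrevin, of recycling endosomes, was at 28.3, 28.6 and 31.4 FPKM in the untreated libraries, 33.3, 32.2 and 30.3 in the IgE libraries and 36.4, 38.0 and 40.8 in the antigen libraries. Each antigen library was above the other 6, and the rise from IgE was 1.20-fold (log2 change 0.26, limma adjusted p = 0.00188).

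The low VAMPs changed as well. Vamp2, the synaptic R-SNARE, was at 6.34, 5.40 and 5.83 FPKM in the untreated libraries, 4.40, 4.58 and 6.19 in the IgE libraries and 6.11, 7.11 and 7.20 in the antigen libraries. IgE replicate 3 lay with the untreated and antigen libraries and apart from the other 2 IgE libraries, so the IgE and antigen groups overlapped, although the rise passed the test (log2 change 0.37, limma adjusted p = 0.00878). Over the alternatives it ran from 0.30 to 0.50. Vamp4, of the trans-Golgi network, and Vamp1, a close relative of Vamp2, rose 1.40-fold and 1.41-fold to 4.55 ± 0.0485 and 2.75 ± 0.0226 FPKM (limma adjusted p = 6.91e-05 and 0.00184). Vamp5, a VAMP first described in muscle, was at 4.12, 3.74 and 3.73 FPKM in the untreated libraries, 4.43, 4.19 and 3.32 in the IgE libraries and 2.70, 1.72 and 2.53 in the antigen libraries. It was the only tested VAMP that fell (log2 change -0.59, limma adjusted p = 0.00107), and its antigen libraries lay below all others.

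Of the 5 tested syntaxin-binding genes, 3 rose and 2 fell, beside 37.6% and 36.2% of all tested genes. Stxbp2, whose product guides Stx3 and Stx11, was at 67.1, 65.3 and 69.0 FPKM in the untreated libraries, 69.0, 68.3 and 64.7 in the IgE libraries and 56.7, 53.4 and 55.1 in the antigen libraries. All antigen libraries were below the other 6, a 1.22-fold fall from IgE (log2 change -0.28, SE 0.0410, limma adjusted p = 0.000102). Stxbp3a, whose product Munc18-3 binds Stx4, was at 4.55, 4.84 and 5.82 FPKM in the untreated libraries, 4.24, 4.36 and 4.48 in the IgE libraries and 7.33, 7.47 and 7.94 in the antigen libraries. It rose 1.74-fold (log2 change 0.68, SE 0.0733, limma adjusted p = 1.14e-05), and every antigen library was above the rest. Its value is uncertain because the pseudogene Stxbp3b can share its reads, and how shared reads were assigned is not given in the sources used here. Stxbp5, the tomosyn gene, rose from 50.0 ± 3.30 to 60.5 ± 1.16 FPKM (log2 change 0.27, limma adjusted p = 0.00045), and Stxbp4 fell from 1.29 ± 0.0805 to 0.721 ± 0.170 FPKM (log2 change -0.41, limma adjusted p = 0.000646). The summed FPKM of this role was 126 ± 1.86 with IgE and 128 ± 1.58 with antigen.

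The tested Unc13 genes fell, as did 36.2% of all tested genes. Unc13d, the gene of the priming factor Munc13-4 of haematopoietic granules, was at 56.5, 58.0 and 57.2 FPKM in the untreated libraries, 50.2, 52.4 and 55.1 in the IgE libraries and 30.8, 31.6 and 32.8 in the antigen libraries. The antigen libraries were the lowest, and the fall from IgE was 1.66-fold (log2 change -0.71, SE 0.0426, limma adjusted p = 1.11e-07). Unc13b, the gene of Munc13-2, was at 7.01, 6.86 and 6.83 FPKM in the untreated libraries, 7.16, 6.99 and 6.96 in the IgE libraries and 4.14, 4.59 and 4.31 in the antigen libraries. It fell 1.62-fold (log2 change -0.59, SE 0.0470, limma adjusted p = 1.04e-06), also without overlap. Unc13a was at 0.271 to 0.300 FPKM in antigen libraries and Unc13c at no more than 0.0331 FPKM in any library. Some forms of human familial haemophagocytic lymphohistiocytosis, those with failed granule release in cytotoxic cells, arise from loss of STX11, STXBP2 or UNC13D. In these mast cells the mouse genes changed by 2.07, -0.28 and -0.71 on the log2 scale, that is, 1 upward and 2 downward.

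**Figure D4:**
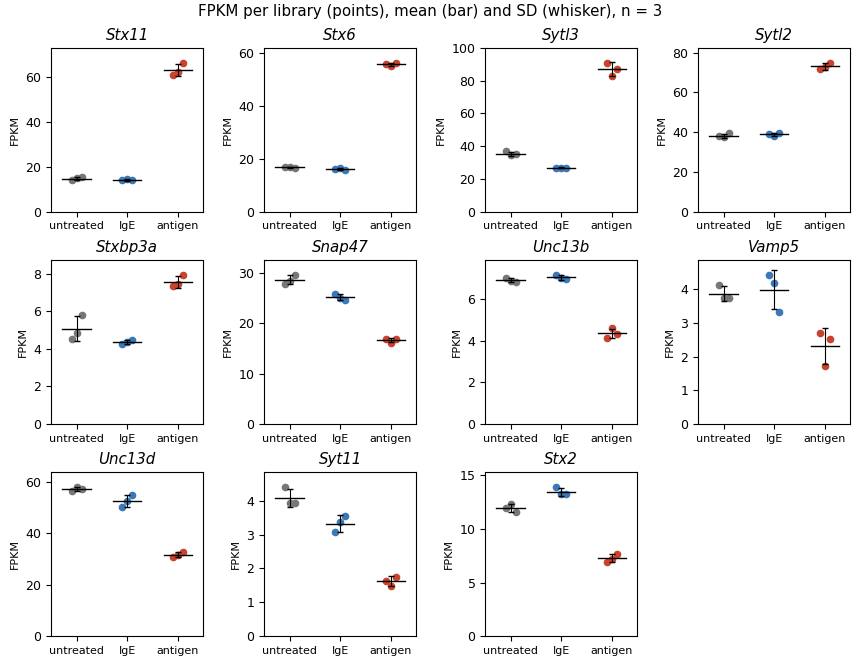
FPKM in each library (points) with mean (bar) and SD (whisker), n = 3 per group, for the 11 members that changed by at least 0.5 on the log2 scale between IgE and antigen. Axes start at 0. In every panel the 3 antigen points lie clear of the 3 IgE points. The panels were chosen by this change, and the groups were also apart in 8204 of all 10890 tested genes.

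Synaptotagmin-like genes held the largest rises besides those of the syntaxins. Their products bind Rab27 on granules through an N-terminal domain and membranes through C2 domains. Sytl3 was at 36.9, 34.6 and 34.9 FPKM in the untreated libraries, 26.9, 26.9 and 26.4 in the IgE libraries and 91.0, 82.6 and 87.3 in the antigen libraries. IgE libraries were the lowest and antigen libraries the highest, with no overlap. Sytl3 fell 1.33-fold from untreated to IgE (log2 change -0.40, limma adjusted p = 0.000183) and rose 3.25-fold from IgE to antigen (log2 change 1.66, SE 0.0434, limma adjusted p = 2.1e-10), and these steps share the IgE libraries. Sytl2 was at 37.9, 37.5 and 39.3 FPKM in the untreated libraries, 39.0, 38.1 and 39.7 in the IgE libraries and 71.5, 72.7 and 74.9 in the antigen libraries. The untreated and IgE libraries overlapped, and the rise to antigen was 1.88-fold (log2 change 0.89, SE 0.0364, limma adjusted p = 5.7e-09). Sytl1 was at 13.0 ± 0.808 FPKM in untreated, 10.3 ± 0.263 in IgE and 9.40 ± 0.265 in antigen libraries, and the last step did not pass the test (limma adjusted p = 0.0546). The summed FPKM of the 5 genes was 86.9 ± 1.81 in untreated, 76.3 ± 0.879 in IgE and 169.5 ± 3.77 in antigen libraries. Sytl4, which is X-linked, did not exceed 0.107 FPKM.

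Only 2 of the 17 synaptotagmins reached the filter, and both fell, as did 36.2% of all tested genes. Syt11, a synaptotagmin that does not bind calcium, was at 4.40, 3.95 and 3.92 FPKM in the untreated libraries, 3.06, 3.36 and 3.56 in the IgE libraries and 1.63, 1.48 and 1.76 in the antigen libraries. The 3 groups did not overlap, and the fall from IgE to antigen was 2.05-fold (log2 change -0.72, SE 0.0674, limma adjusted p = 3.59e-06). Syt9 fell from 1.45 ± 0.0647 to 0.965 ± 0.135 FPKM (log2 change -0.32, limma adjusted p = 0.00132). Syt5, under the filter, was at 0.273, 0.272 and 0.329 FPKM in untreated, 0.285, 0.146 and 0.108 in IgE and 0.539, 0.698 and 0.490 in antigen libraries. Without a filter on low values it passed the test (log2 change 0.42, limma adjusted p = 0.000622), and so did Syt17, which was listed at 0 in all 6 untreated and IgE libraries and was at 0.0255, 0.0913 and 0.0668 FPKM in the antigen libraries (log2 change 0.09, limma adjusted p = 0.0069). Sytl5, an X-linked synaptotagmin-like gene also under the filter, passed that test downward (log2 change -0.126, limma adjusted p = 0.0139), with antigen replicate 3 missing. Syt5, Syt17 and Sytl5 are named after their values were seen. The 17 synaptotagmins summed to 6.39 ± 0.200 FPKM in untreated and 3.64 ± 0.207 FPKM in antigen libraries, against 278 ± 6.50 FPKM for the 7 VAMPs with antigen. Genes listed at 0 add nothing to these sums.

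IgE against untreated shows the members after 18 h of IgE with no antigen, when most changes were small falls. Of the 33 tested members, 11 fell, 1 rose and 21 did not pass the test, a called share of 36.4% against 30.1% of all tested genes (15.9% higher and 14.2% lower). None reached a log2 change of 0.5, a size that 2.06% of all tested genes reached upward and 0.808% downward among called genes. The members that fell were Sytl3, Snap23, Sytl1, Vamp1, Vamp4, Syt11, Stx5a, Stx3, Stx16, Snap47 and Stxbp5, with log2 changes from -0.40 to -0.17. Sytl1, a tether relative of Sytl3, fell 1.26-fold (log2 change -0.30, limma adjusted p = 0.00173). Vamp4 fell by 0.28 on the log2 scale (limma adjusted p = 0.00377) and Stx5a, a syntaxin of early Golgi traffic, by 0.23 (limma adjusted p = 0.00281). Stx2 rose, by 0.16 (limma adjusted p = 0.0295), a call that was lost without untreated replicate 1, untreated replicate 3, IgE replicate 1 or IgE replicate 2 (limma adjusted p = 0.0756, 0.110, 0.0950 and 0.0594), so it depended on which libraries entered the fit.

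The fall of Syt11 in this comparison (log2 change -0.23, limma adjusted p = 0.0253) was lost without untreated replicate 1, IgE replicate 1 or IgE replicate 2 (limma adjusted p = 0.101, 0.0884 and 0.0611). The number of members that fell was 7 without untreated replicate 1, 7 without IgE replicate 2 and 14 without IgE replicate 3. Stx11, Stx6 and Sytl2, which rose with antigen, did not pass the test here, with 95% intervals of the log2 change of -0.158 to 0.0616, -0.133 to 0.0206 and -0.0546 to 0.108. Unc13d, which fell with antigen, was at 57.2 ± 0.766 FPKM in untreated and 52.6 ± 2.48 in IgE libraries (log2 change -0.12, limma adjusted p = 0.0567), and it passed the test without IgE replicate 3 (log2 change -0.15, limma adjusted p = 0.0114).

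Antigen against untreated shares its libraries with the other comparisons and is given beside them. Of the 33 tested members, 9 rose and 16 fell, a called share of 75.8% against 74.3% of all tested genes (38.7% higher and 35.6% lower). Stx11, Stx6, Sytl3 and Sytl2 had log2 changes of 2.02, 1.67, 1.27 and 0.92 against untreated and 2.07, 1.73, 1.66 and 0.89 against IgE. For Syt11, Unc13d, Snap47 and Stx2 the values were -0.96, -0.83, -0.74 and -0.65 against untreated and -0.72, -0.71, -0.57 and -0.81 against IgE. Snap23 and Stx3 fell against untreated by 0.38 and 0.51 (limma adjusted p = 0.000108 and 1.1e-06). Vamp1 and Vamp4, which fell with IgE and rose with antigen, ended at 2.75 ± 0.0226 and 4.55 ± 0.0485 FPKM beside 2.58 ± 0.134 and 4.14 ± 0.0615 FPKM in untreated libraries, and neither difference passed the test (limma adjusted p = 0.431 and 0.0793). Stxbp5 also fell with IgE and rose with antigen, and did not pass the test against untreated (log2 change 0.0954, limma adjusted p = 0.0935). Vamp2, which rose from IgE to antigen, did not pass it against untreated either (log2 change 0.187, limma adjusted p = 0.136).

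Other genes of the fusion pathway, from 7 lists of 87 genes, also moved both ways between IgE and antigen, with more falls than rises. Of the 69 tested, 18 rose and 31 fell, beside 37.6% and 36.2% of all tested genes. Of 12 other SNAREs, 3 rose and 5 fell. Bet1l, a Q-SNARE of the Golgi, went from 20.4 ± 1.04 to 54.3 ± 1.63 FPKM (log2 change 1.37, limma adjusted p = 5.2e-09), and Ykt6, a lipid-anchored R-SNARE, from 33.0 ± 1.96 to 55.7 ± 1.22 FPKM. Gosr2, another Golgi Q-SNARE, rose by 0.41 and Sec22c fell by 0.79 on the log2 scale. Of 3 tested SNARE disassembly genes 2 rose and 0 fell: Napa, the adaptor alpha-SNAP, went from 40.1 ± 0.988 to 61.0 ± 2.57 FPKM (limma adjusted p = 1.78e-06) and Nsf, the ATPase that unwinds used SNARE bundles, from 30.4 ± 0.362 to 35.5 ± 1.22 FPKM (limma adjusted p = 0.000975). Of 5 other Sec1/Munc18 genes, 3 fell and 0 rose, namely Vps45, Vps33b and Scfd1, with log2 changes of -0.34, -0.26 and -0.28. The medians of these 3 lists were 0.0209, 0.215 and -0.264 on the log2 scale, beside 0.00713 over all tested genes.

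Of 8 tested Rab GTPases of secretory granules, 5 fell and 1 rose, with a median of -0.396. Rab19 went from 52.5 ± 2.25 to 16.7 ± 1.01 FPKM (log2 change -1.59, limma adjusted p = 9.38e-10) and Rab3a fell by 0.62, while Rab27a, whose product the synaptotagmin-like proteins bind, was at 26.9 ± 1.99 and 24.7 ± 0.960 FPKM (limma adjusted p = 0.0738) and Rab27b fell by 0.29 (limma adjusted p = 0.000309). Among 11 tested Rab effectors and priming factors, 4 rose and 3 fell (median 0.0339). Mlph, melanophilin, another Rab27 effector, went from 6.67 ± 0.218 to 2.66 ± 0.0753 FPKM (limma adjusted p = 1.39e-08), and Myo5a, the myosin it recruits in melanocytes, from 14.9 ± 0.261 to 20.6 ± 0.714 FPKM (limma adjusted p = 8.29e-06). Rab3gap2, a subunit of the Rab3 GTPase-activating complex, rose by 1.26. Of 10 exocyst genes, 2 rose and 5 fell (median -0.145). Log2 changes were 0.71 for Exoc5, -0.66 for Exoc3 and -1.16 for Exoc3l. Of 20 granule biogenesis genes, 6 rose and 10 fell (median -0.180). Lyst, whose loss gives the giant granules of beige mice, went from 11.5 ± 0.366 to 18.9 ± 0.869 FPKM (limma adjusted p = 3e-07), and Dtnbp1, dysbindin, from 126 ± 6.67 to 81.1 ± 4.13 FPKM (limma adjusted p = 1.89e-06). The shares of all tested genes called in this comparison, 37.6% higher and 36.2% lower, are the background of these counts too. Between untreated and IgE, 5 of the 69 tested genes of the lists rose and 8 fell, beside 15.9% and 14.2% of all tested genes. Nsf rose from 22.8 ± 1.01 to 30.4 ± 0.362 FPKM (log2 change 0.40, limma adjusted p = 0.000154), the only called gene of the 3 for SNARE disassembly. Of the 8 Rab GTPases 2 rose and 2 fell, and Rab44, named after its values were seen, fell by 0.44 (limma adjusted p = 6.03e-05). In the other lists 1 of 12 SNAREs rose and 1 fell, 1 of 10 exocyst genes rose and 2 fell, 1 of 11 Rab effectors and priming factors and 2 of 20 granule biogenesis genes fell, and 0 of 5 Sec1/Munc18 genes passed the test.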

How the data were processed

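RNA-seq of 9 libraries was available as 1 deposited table of 23951 gene symbols, whose column names give group and replicate. Its unit is FPKM, as deposited by the authors. Alignment used TopHat2 2.0.12 with Bowtie 0.12.7 and the mm9 build, per the submitters' processing notes. Neither the FPKM program nor its annotation or strand setting is stated in the sources used here, so reads of overlapping antisense genes may be included.

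A gene was tested if 3 or more libraries reached 1 FPKM, which left 10890 genes. A single linear model with a mean per group, no covariate and a trended prior was fitted to log2(FPKM + 1) with limma 3.58.1 (R 4.3.3). Tests were two-sided, with Benjamini-Hochberg adjustment over all tested genes and a threshold of 0.05. Log2 changes on this scale understate low genes, and plain folds are ratios of mean FPKM. Zeros of X- and Y-linked genes in antigen replicate 3 were missing values, from chromosomes in the RefSeq table of GRCm38.p6. Depth came from steps of FPKM times transcript length in genes with a single GENCODE M21 transcript, as the depth that fitted the low values best. At that depth 46.0% to 59.2% of these values fell within 0.1 of a whole read. At a depth fixed beforehand 20.0% would by chance. The depth was chosen on the same values, so these shares are not a test of it. Depths and counting coefficients of variation cover counting error only, whereas the 95% intervals of log2 changes are limma's and rest on the spread between libraries. The model script was tested on simulated data.

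Members and lists were chosen with earlier results of these data known. Members named with every library's value were a set of 15 degranulation genes, those called with a log2 change of at least 0.5, and the highest member of each role. From each list, up to 4 called genes with the smallest adjusted p may be named. Rab27a and Rab27b were named in addition, after their values were seen. Alternatives were the pseudocount, the filter, the scaling, the prior, the libraries in the fit, the X zeros, a replicate block and leaving out each library. A syntaxin-binding gene counted among the members, and a marker gene, are not reported here. Leaving out IgE replicate 3 and antigen replicate 3 together was added after seeing the data.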

Additional observations from a re-analysis of the deposited data

How the results depend on the processing

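The antigen effects on Stx11, Stx6, Sytl3, Sytl2, Stx2, Unc13d, Unc13b, Snap47, Syt11, Stxbp3a and Vamp5 kept their direction and passed the test under every alternative run, with Stx11 between 1.89 and 2.14 on the log2 scale. The 13 rises and 13 falls of members for antigen against IgE moved with the scaling. Median centring gave 12 and 14, and quantile normalization 11 and 16. Over all tested genes the rises and falls went from 4096 and 3944 to 3713 and 4326, and to 3331 and 4656. Requiring a log2 change of at least 0.5 left 5 rises and 6 falls for antigen against IgE, 0 and 0 for IgE against untreated, and 5 and 7 for antigen against untreated. For IgE against untreated, leaving out 1 library gave 0 to 2 rises and 7 to 14 falls. Leaving out IgE replicate 3 and antigen replicate 3 together, an alternative chosen after seeing the data, gave 3 rises. Correlations of deviations between libraries with the same replicate number ran from -0.331 to 0.351, and 5 of 18 were best with their own number, so the numbers were not taken to pair samples. With the replicate number as a block, rises in IgE against untreated went from 1 to 0, because the call of Stx2 was lost, and the other member counts were equal.

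Signs turned only for changes that had not passed the test. Quantile normalization gave -0.0653 for Stx4a in antigen against IgE, -0.213 for Stx4a in antigen against untreated, which then passed the test (limma adjusted p = 0.0257), and -0.0621 and -0.0659 for Stxbp2 and Vamp8 in IgE against untreated. Median centring gave -0.0402 for Stx4a in antigen against untreated, and leaving out both replicates named above gave -0.0178. With 1 library left out, Stx4a in that comparison ran from -0.0178 to 0.0424, and in IgE against untreated Stxbp2 ran from -0.0158 to 0.0316 and Vamp5 from -0.0378 to 0.126. The cause was not tested. Among the other alternatives for the 19 named members tested, 21 gained a call and 9 lost one, all 9 in IgE against untreated. Members under 0.1 FPKM rest on a few reads.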
